A study of Mus musculus with 9 samples.

Results

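The long 5′ fragments of the nuclear lysine tRNAs were 10 of the 200 tRNA fragments listed for the RPE-choroid-sclera complex of the mouse eye. They were chosen by name and class: rows of class tRF-5c or tiRNA-5 whose parent was a Lys-CTT or Lys-TTT tRNA outside the mitochondrial genome. Of the 10 members, 8 came from Lys-CTT and 2 from Lys-TTT; 7 were tRF-5c, fragments that run from the 5′ end to just before the anticodon, and 3 were tiRNA-5, which reach the anticodon itself. They belong to the 102 nuclear long 5′ fragments in the list. All complexes came from C57BL/6 mice, and 3 libraries were made for each of 3 groups: control, day 3 and day 7 after laser-induced choroidal neovascularization. In the laser groups a 532 nm laser was used on mice of 6 to 8 weeks, and a bubble at the burn marked a break of Bruch's membrane, the sheet between the retinal pigment epithelium (RPE) and the choroid. The labels do not give the age or handling of the control mice apart from the others, nor whether each complex came from a separate animal, so every p-value below describes the scatter among these libraries, and that scatter could be technical. The list holds tRNA fragments alone, so markers of the tissue's cell types could not be read from it.

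Lysine tRNAs with the CTT and TTT anticodons read the codons AAG and AAA. Cleavage in the anticodon loop, for which angiogenin is the best known ribonuclease in stressed mammalian cells, leaves a 5′ fragment whose end lies in or beside the anticodon. Angiogenin is also known as a factor that promotes the growth of vessels.

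The tRNA sequences in the deposited alignments show where each fragment ends. The 3 parents are given over positions 1 to 40, counted from the 5′ end, with the anticodon at positions 34 to 36 in capitals.
tRNA-Lys-CTT-3-1: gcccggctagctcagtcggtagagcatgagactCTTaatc
tRNA-Lys-CTT-2-1: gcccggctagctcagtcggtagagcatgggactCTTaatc
tRNA-Lys-TTT-1-1: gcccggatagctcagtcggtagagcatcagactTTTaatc
The anticodons match the labels of all 3 parents. Within the first 34 positions Lys-CTT-2 and Lys-CTT-3 differ by 1 base, G29A, written as the base of the first parent, the position and the base of the second. Lys-CTT-3 and Lys-TTT-1 differ there by 3 bases, C7A, G28C and C34T, the last of which is in the anticodon.

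The 2 most abundant members and the shortest one are shown to compare their ends, with the first anticodon base in capitals where the fragment reaches it.
tRF-1:28-Lys-CTT-2-M2: gcccggctagctcagtcggtagagcatg
tRF-1:32-Lys-CTT-3: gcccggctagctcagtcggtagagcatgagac
tiRNA-1:34-Lys-CTT-3: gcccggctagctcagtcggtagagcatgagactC
All 3 members of 34 nt, from Lys-CTT-3, Lys-CTT-2 and Lys-TTT-1, ended on the first base of the anticodon. All 3 members of 32 nt ended before position 33, leaving 1 base between the fragment and the anticodon, and no lysine fragment of 33 nt was listed. The other 4 members, of 28 to 31 nt, stopped 5, 4, 3 and 2 bases before the anticodon. Of the 10 members, 9 matched a single lysine tRNA; the 28 nt fragment is shared by Lys-CTT-2 and Lys-CTT-3, since both are identical over their first 28 positions. RefSeq (GRCm38.p6) lists 26 lysine tRNA genes on 12 chromosomes, 24 with the anticodon CTT and 2 with TTT, and the fragments were not assigned to single genes here.

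Each library held 1204173 to 2155977 mapped reads, of which the listed fragments took 75.7% to 76.0% in control, 56.0% to 62.1% at day 3 and 75.3% to 78.6% at day 7. Lysine members made up 8665, 12654 and 10955 CPM (counts scaled to the mapped reads of the library) in the 3 control libraries, 9712, 9796 and 15566 CPM at day 3, and 12338, 6347 and 10322 CPM at day 7. The groups overlapped in this summed level. The lower listed share at day 3 is a property of all 3 day 3 libraries, and its part in the differences in CPM below was not tested. Fits scaled to the listed counts are given below for comparison. The scaling of libraries cancels in ratios between fragments of the same library. Whether the lower share and the ratios of lengths at day 3 have a common source was not tested.

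At day 3 the balance of lengths in the Lys-CTT 5′ fragments moved from 34 nt towards 32 nt. The 32 nt fragments of Lys-CTT-3 and Lys-CTT-2 and the 29 and 30 nt fragments of Lys-CTT-3 rose 2.16-fold to 2.46-fold over control, while none of the 34 nt members passed the test and all 3 had values below control. In the Lys-CTT-3 tRNA the 34 nt form took 68.1% ± 8.10 (SD, n = 3) of the 32 and 34 nt counts in control and 31.1% ± 9.77 at day 3. At day 7 no member differed from control by the test.

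The 32 nt fragment of Lys-CTT-3, which lacks the anticodon and the base before it, was the member with the largest shift in CPM. It was at 2640, 2523 and 2353 CPM in control, at 4939, 5972 and 7351 CPM at day 3 and at 2965, 2231 and 3715 CPM at day 7. Every day 3 library lay above every control and every day 7 library, and control and day 7 overlapped. At day 3 it was 2.35-fold higher than in control (log2 fold change 1.23, SE 0.37, edgeR quasi-likelihood test, adjusted p = 0.0199).

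The shorter fragments of Lys-CTT-3 formed a ladder below it. The 31 nt fragment measured 1159, 1034 and 819 CPM in control, 1512, 1403 and 1625 CPM at day 3 and 605, 751 and 967 CPM at day 7. The day 3 libraries stood above all others, but the difference from control did not pass (log2 0.54, SE 0.39, edgeR adjusted p = 0.294). The 30 nt fragment measured 105, 147 and 108 CPM in control, 240, 296 and 299 CPM at day 3 and 111, 121 and 106 CPM at day 7. Again every day 3 library was the higher, and here the test passed, at 2.27-fold over control (log2 1.18, SE 0.35, edgeR adjusted p = 0.0195). The 29 nt fragment measured 8.17, 14.3 and 11.6 CPM in control, 26.8, 35.5 and 23.2 CPM at day 3 and 18.3, 7.81 and 17.9 CPM at day 7. It was 2.46-fold higher at day 3 (log2 1.30, SE 0.42, edgeR adjusted p = 0.0317), with 10 counts in its lowest library. The 28 nt fragment shared with Lys-CTT-2 stayed within overlapping ranges, at 79.4 ± 27.8 CPM in control, 96.5 ± 26.5 CPM at day 3 and 94.3 ± 32.01 CPM at day 7 (SD, n = 3).

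The 34 nt fragment of Lys-CTT-3, a 5′ fragment that ends inside the anticodon, was the most abundant member in control. It was at 3781, 7165 and 5918 CPM in control, at 2212, 1631 and 5105 CPM at day 3 and at 6991, 2564 and 4413 CPM at day 7. Replicate 3 of day 3 lay above replicate 1 of control, so the groups overlapped. The difference at day 3 was 1.93-fold in the lower direction and did not pass (log2 -0.95, SE 0.42, edgeR adjusted p = 0.0941).

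Lys-CTT-2, which differs from Lys-CTT-3 by G29A within the fragments, was seen mostly as its 34 nt form. Of its 32 and 34 nt counts, this form took 98.5% to 98.6% in control and 85.4% to 95.3% at day 3. That form measured 758, 1497 and 1460 CPM in control, 569, 246 and 868 CPM at day 3 and 1328, 491 and 841 CPM at day 7. Day 3 replicate 3 overlapped control replicate 1 here too, and the day 3 difference was not called (log2 -1.16, SE 0.45, edgeR adjusted p = 0.0590). The 32 nt form measured 11.4, 22.3 and 21.3 CPM in control, 37.3, 42.1 and 42.7 CPM at day 3 and 30.7, 19.5 and 24.8 CPM at day 7. All day 3 libraries were above all others, and the rise was 2.16-fold (log2 1.11, SE 0.34, edgeR adjusted p = 0.0227). This fragment was 0.433% to 1.04% of the level of the 32 nt fragment of Lys-CTT-3, from which it differs by 1 base, in every library; the part of miscalled reads of the abundant fragment in it was not tested.

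Lys-TTT-1, the parent of both Lys-TTT members, was far less abundant. Its 34 nt form measured 140, 128 and 147 CPM in control, 90.9, 44.4 and 107 CPM at day 3 and 141, 80.4 and 136 CPM at day 7. Every day 3 library lay below every control library, and the difference did not pass (log2 -0.82, SE 0.38, edgeR adjusted p = 0.104). Its 32 nt form measured 14.7, 25.1 and 25.05 CPM in control, 17.9, 22.4 and 25.6 CPM at day 3 and 18.3, 12.3 and 19.3 CPM at day 7. Unlike the 32 nt forms of the CTT parents, it overlapped between control and day 3, with a log2 difference of -0.02 (SE 0.38, edgeR adjusted p = 0.973). It held 18 to 54 counts per library.

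**Figure D1:**
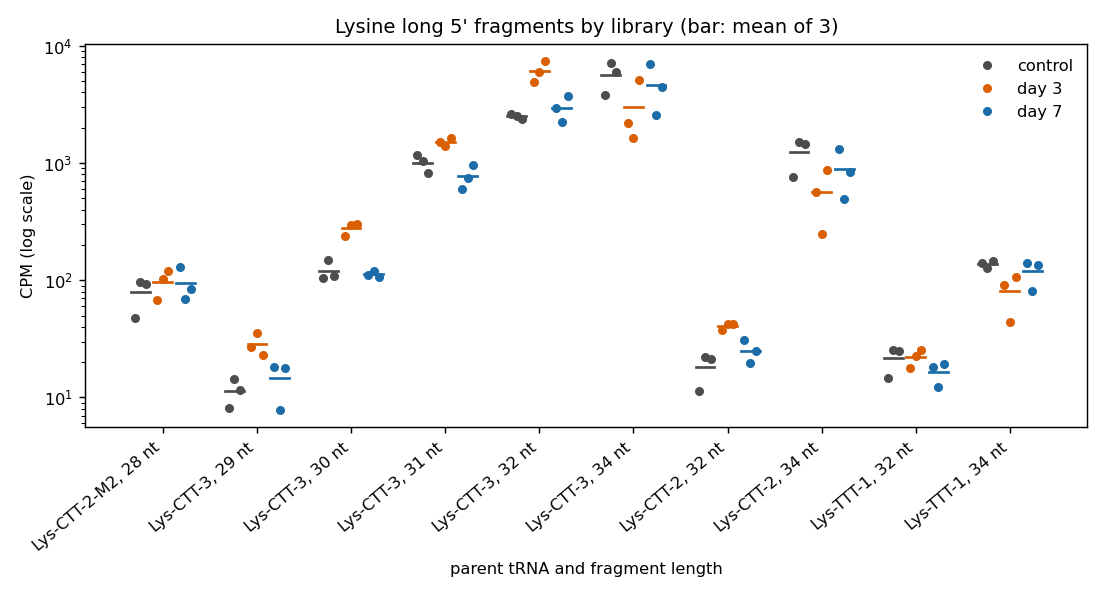
CPM on a log scale for each of the 10 lysine long 5′ fragments, ordered by parent tRNA and length; points are libraries, colours are groups and bars are means of 3 libraries. The day 3 points stand above control for the 29, 30, 31 and 32 nt fragments of Lys-CTT-3 and the 32 nt fragment of Lys-CTT-2, and the day 3 means are the lowest for the 34 nt fragments.

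In counts, 4 of the 10 members rose at day 3 against 10% of all 200 fragments, and 0 of 10 fell against 11.5%. At an unadjusted p below 0.05 there were 7 members, against 39 of the 102 nuclear long 5′ fragments and 88 of all 200. The 3 members added there were the 34 nt forms. The median log2 fold change was 0.40 over the members, 0.33 over the 102 nuclear long 5′ fragments and -0.04 over all fragments. Of those 102 fragments, 15 rose and 2 fell. With 1 library left out, the count was 1 without control replicate 1, 0 without control replicate 2, 0 without control replicate 3, 2 without replicate 1 or without replicate 2 of day 3, and 6 (4 higher, 2 lower) without replicate 3 of day 3. The log2 values of the 4 called fragments stayed near those reported under these omissions, at 1.12 to 1.44 for the 29 nt, 1.10 to 1.25 for the 30 nt and 1.11 to 1.35 for the 32 nt fragment of Lys-CTT-3, and 0.93 to 1.22 for the 32 nt fragment of Lys-CTT-2. With mapped totals alone 2 rose, the 30 and 32 nt fragments of Lys-CTT-3. By DESeq2, and by limma-voom, 5 were called, the addition being the 34 nt form of Lys-CTT-2 in the lower direction. Scaled to the sum of the listed counts, 5 members rose, and the median of all fragments moved from -0.04 to 0.37, with 49 higher and 14 lower calls in place of 20 and 23. With that scaling the 34 nt forms were at -0.52 for Lys-CTT-3, -0.76 for Lys-CTT-2 and -0.41 for Lys-TTT-1 (edgeR adjusted p from 0.184 to 0.475). The 32 nt fragment of Lys-CTT-3 was at 1.66.

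At day 7, 0 of the 10 members differed from control by edgeR, against 4% of all fragments, with 0 by DESeq2 and 0 by limma-voom. At an unadjusted p below 0.05 there were 0 members, against 38 of all 200 fragments. The difference nearest to the threshold was that of the 32 nt form of Lys-CTT-2 (log2 0.70, SE 0.35, adjusted p = 0.268). The 34 nt forms measured -0.04 for Lys-CTT-3, -0.24 for Lys-CTT-2 and 0.05 for Lys-TTT-1 in log2 fold change; by other scalings the Lys-TTT-1 value is negative. Day 3 and day 7 share the same control libraries.

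From day 3 to day 7, 1 of the 10 members fell, against 11.5% of all fragments. By edgeR 0 rose, against 23.0%, and 0 rose by DESeq2 or limma-voom. At an unadjusted p below 0.05, 2 were higher, the 34 nt forms of Lys-TTT-1 and Lys-CTT-3. In either direction 3 of the 10 members were below that value, against 95 of all 200 fragments. The member that fell was the 30 nt fragment of Lys-CTT-3, by 0.97 on the log2 scale (SE 0.35, edgeR adjusted p = 0.0377). Without 1 day 3 library it was at -1.03 to -0.93 (edgeR adjusted p from 0.0636 to 0.0657). Without day 7 replicate 1 it was at -0.80 (edgeR adjusted p = 0.111). It was not called in any of these fits. The 32 nt form of Lys-CTT-3 differed by -0.69 (SE 0.37, edgeR adjusted p = 0.138) although its groups did not overlap in CPM. The 34 nt forms differed by 0.87 to 0.92 and did not pass (edgeR adjusted p from 0.0790 to 0.106). Among fragments of at least 100 CPM on average all 3 passed in the higher direction (log2 0.93 to 1.03, edgeR adjusted p from 0.0428 to 0.0439). Of the 70 fragments tested in that fit, 17 were called higher and 14 lower. Without day 3 replicate 3 those of Lys-CTT-3 (log2 1.49, edgeR adjusted p = 0.0154) and Lys-CTT-2 (log2 1.32, edgeR adjusted p = 0.0441) passed. In that fit 44 of all 200 fragments were called higher and 23 lower. This comparison uses the same day 3 and day 7 libraries as the comparisons with control. By library scaling, 3 members fell with mapped totals alone and 5 with listed counts, where the median of all fragments was -0.51 in place of 0.15 and 9 fragments were higher and 63 lower in place of 46 and 23.

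**Figure D2:**
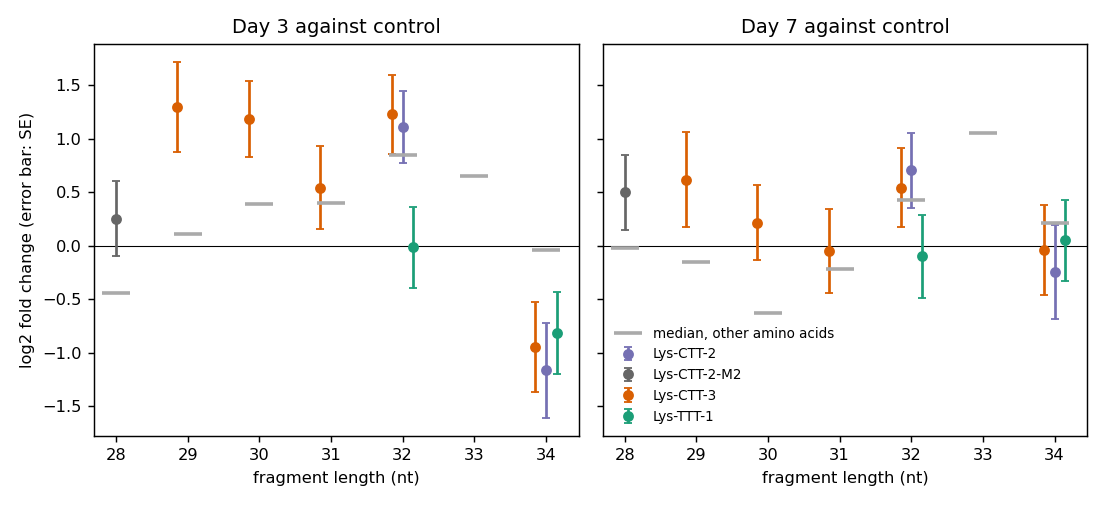
Log2 fold change (vertical axis) against fragment length in nt for each lysine member at day 3 and at day 7, with SE bars; grey marks are medians of the nuclear long 5′ fragments of other amino acids. At day 3 the lysine values are 1.23 and 1.11 for the CTT parents at 32 nt and -0.82 to -1.16 at 34 nt.

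Across the other amino acids, the length pattern at day 3 was partly shared. Of their 24 fragments of 32 nt, 18 had a positive log2 fold change, 9 rose and the median was 0.85. Of their 13 fragments of 34 nt, 5 were positive, none was called in either direction and the median was -0.04. The 3 lysine values at 34 nt ran from -1.16 to -0.82, and those of the others from -1.03 to 0.61.

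The shift from 34 to 32 nt was next read within each parent and library, where scaling cancels. This ratio was chosen after the values were seen. For Lys-CTT-3 the 34 nt form took 58.9%, 73.96% and 71.6% of the 32 and 34 nt counts in the control libraries, 30.9%, 21.5% and 41.0% at day 3 and 70.2%, 53.5% and 54.3% at day 7. For Lys-CTT-2 it took 98.5%, 98.5% and 98.6% in control, 93.8%, 85.4% and 95.3% at day 3 and 97.7%, 96.2% and 97.1% at day 7. In both CTT parents every day 3 library was below every control and every day 7 library; for Lys-CTT-2 the day 7 libraries were also all below control. For Lys-TTT-1 it took 90.5%, 83.6% and 85.4% in control, 83.6%, 66.4% and 80.6% at day 3 and 88.5%, 86.7% and 87.6% at day 7. Here day 3 replicate 1 and control replicate 2 agree within counting error (95% Wilson intervals of 78.1% to 87.9% and 78.7% to 87.5%), whereas the deeper Lys-CTT-3 share of 58.9% in control replicate 1 has an interval of 57.8% to 60.0%. The intervals cover counting error only. Among parents of other amino acids, Ala-CGC-5 and Glu-CTC-2 also had every day 3 library below every control and every day 7 library. Their mean shares were 62.1% and 64.7% in control and 47.6% and 45.6% at day 3. In the remaining parents of other amino acids listed at both lengths, day 3 and control overlapped.

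**Figure D3:**
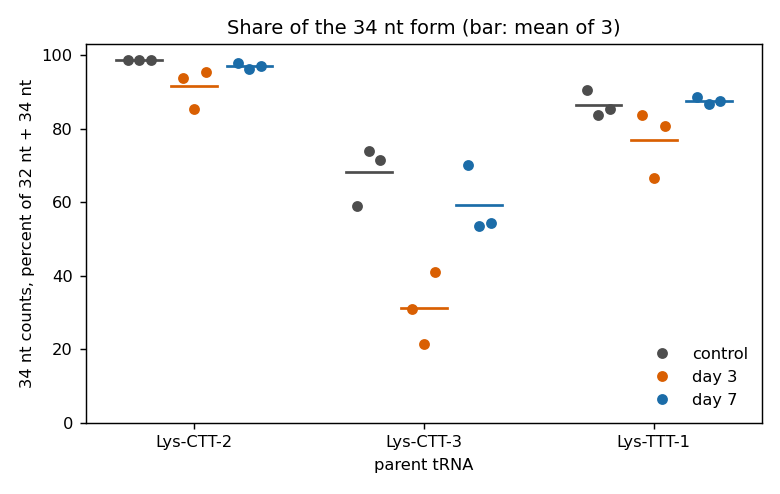
Percent of the 32 and 34 nt counts that were 34 nt, for the 3 lysine parents with both lengths; points are libraries and bars are means of 3. The day 3 mean is 31.1% for Lys-CTT-3 against 68.1% in control, 91.5% against 98.5% for Lys-CTT-2 and 76.9% against 86.5% for Lys-TTT-1.

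A limma fit of the log2 ratio of 34 to 32 nt counts was made over the 11 parents listed at both lengths. The ratio had been chosen after the shift was seen in these same libraries, so its p-values are not independent support for the shift. At day 3 the ratio fell 4.94-fold in Lys-CTT-3 (log2 -2.30, SE 0.44, adjusted p = 0.00245) and 5.45-fold in Lys-CTT-2 (log2 -2.45, SE 0.43, adjusted p = 0.00245). The Lys-CTT-2 ratio has as its divisor the 32 nt form at 0.433% to 1.04% of that of Lys-CTT-3, and the part of miscalled reads in it was not tested. Both calls held without each of the 6 compared libraries in turn, with log2 values from -2.63 to -1.96 and from -2.81 to -1.92. In Lys-TTT-1 the difference was -0.91 (SE 0.38, limma adjusted p = 0.0837) and was not called. It passed without day 3 replicate 1 (adjusted p = 0.0461). Over all 11 parents 27.3% were called lower, the third being Ala-CGC-5 at -0.83 (SE 0.21, limma adjusted p = 0.00978), and the median was -0.68. At an unadjusted p below 0.05 there were 5 of the 11 parents. Glu-CTC-2 was at -1.14 (SE 0.42, limma adjusted p = 0.0623) and Glu-TTC-3 at -0.68 (SE 0.39), and neither was called. His-GTG-2 (log2 -0.08), Glu-TTC-2 (-0.01) and Gly-TCC-1 (-0.03, SE 0.48) were near no difference in the same libraries. Asp-GTC-1-M2 (0.59) and Glu-TTC-1 (0.39) were positive and not called.

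**Figure D4:**
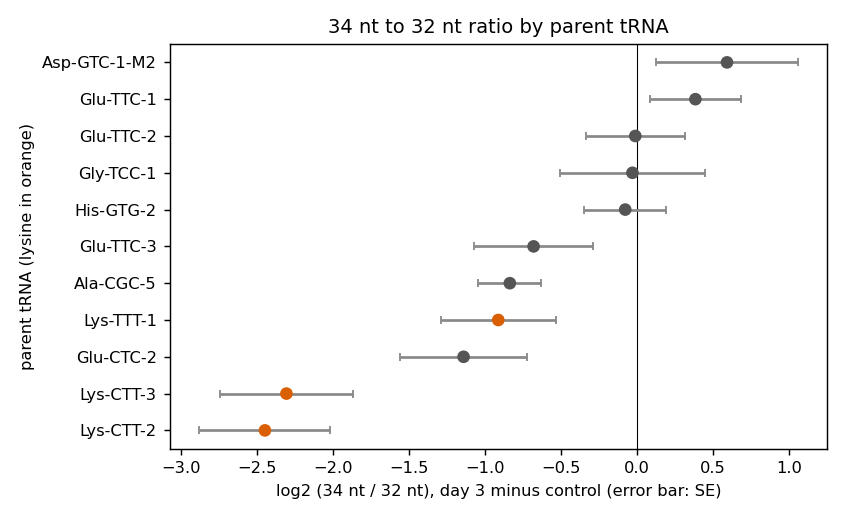
Difference in the log2 ratio of 34 nt to 32 nt counts between day 3 and control, with SE bars, for the 11 parent tRNAs listed at both lengths; lysine parents are orange. Lys-CTT-2 at -2.45 and Lys-CTT-3 at -2.30 are the most negative, and Lys-TTT-1 at -0.91 lies near Ala-CGC-5 and Glu-CTC-2.

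At day 7 the ratio differed from control in 0.00% of the 11 parents by limma, with 4 parents at an unadjusted p below 0.05. Lys-CTT-2 was 1 of those (log2 -1.01, SE 0.43, adjusted p = 0.128). Lys-CTT-3 differed by -0.56 (SE 0.44) and Lys-TTT-1 by 0.10 (SE 0.38). Between day 3 and day 7 the ratio rose in 54.5% of the 11 parents, among them Lys-CTT-3 (log2 1.75, SE 0.44, limma adjusted p = 0.0105), Lys-CTT-2 (1.44, SE 0.43, adjusted p = 0.0181) and Lys-TTT-1 (1.01, SE 0.38, adjusted p = 0.0435). The median over the 11 parents was 1.06, above the Lys-TTT-1 value, and 9.09% were called lower. Glu-CTC-2 and Glu-TTC-3, each at 1.58, rose more than Lys-CTT-2. The Lys-CTT-2 call was lost without day 7 replicate 1 (adjusted p = 0.0675), and the Lys-TTT-1 call was lost without replicate 2 or 3 of day 3 and without any 1 of the day 7 libraries (adjusted p from 0.0541 to 0.0991).

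Summed over parents, the 34 nt forms made up 54.0%, 69.5% and 68.7% of all lysine member counts in control. They made up 29.6%, 19.6% and 39.1% at day 3 and 68.6%, 49.4% and 52.2% at day 7. The 32 nt forms made up 30.8%, 20.3% and 21.9%, then 51.4%, 61.6% and 47.7%, then 24.4%, 35.7% and 36.4%. At day 3 the 32 nt forms were the larger class in each library, and in control and at day 7 the 34 nt forms were.

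**Figure D5:**
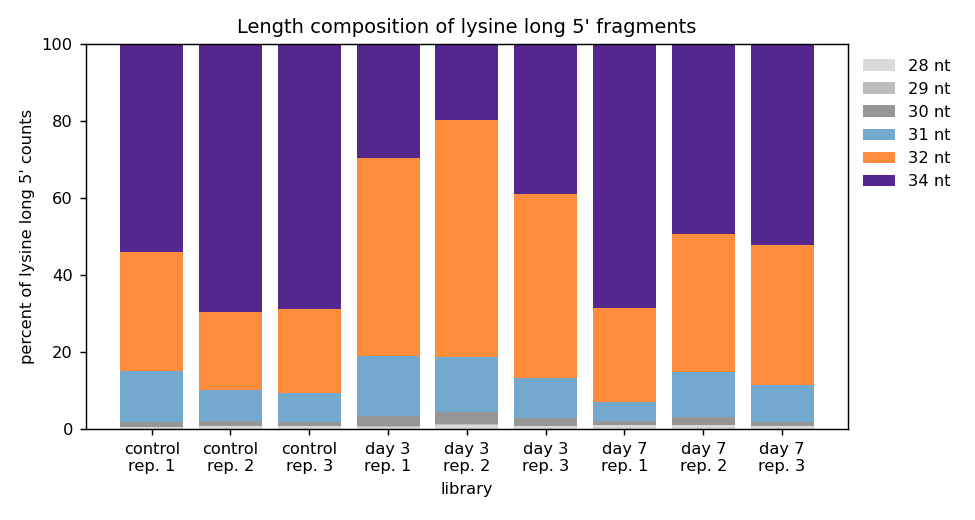
Percent of the lysine long 5′ counts at each length (stacked bars) in each of the 9 libraries. The 32 nt segment is 47.7% to 61.6% at day 3 and 20.3% to 36.4% in the other libraries.

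By parent, Lys-CTT-3 held 86.3% ± 2.38 of the lysine member counts in control, 93.3% ± 1.81 at day 3 and 88.4% ± 1.57 at day 7 (SD, n = 3). Lys-CTT-2 held 11.5% ± 2.37, 5.01% ± 1.80 and 9.15% ± 1.62. Lys-TTT-1 held 1.52% ± 0.289, 0.885% ± 0.221 and 1.42% ± 0.111. These 3 parents kept the same order of abundance in every library, with no overlap between neighbours.

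When counts were summed per parent over long 5′ fragments and tested with 38 parents, Lys-CTT-2 fell at day 3 (log2 -1.08, SE 0.35, edgeR adjusted p = 0.0130); 10.5% of all parents fell. Lys-CTT-3 was at 0.20 (SE 0.32, edgeR adjusted p = 0.653) and Lys-TTT-1 at -0.68 (SE 0.31, edgeR adjusted p = 0.0623). The Lys-CTT-2 sum holds 2 fragments, and its 34 nt form was 85.4% to 98.6% of it in every library. The Lys-CTT-3 sum holds 5 fragments, whose day 3 values had opposite signs. At 34 nt alone the log2 values were -1.16 for Lys-CTT-2 and -0.95 for Lys-CTT-3, and neither was called. These sums therefore compare different sets of lengths. The Lys-CTT-2 call was lost without control replicate 3 (adjusted p = 0.0717), without day 3 replicate 2 (0.0566), with mapped totals alone (0.0600) and with listed counts (0.237). No lysine parent differed at day 7 from control by edgeR, against 7.89% of parents, with 0 lysine parents at an unadjusted p below 0.05. Between day 3 and day 7 Lys-CTT-2 (log2 0.86, SE 0.34, adjusted p = 0.0349) and Lys-TTT-1 (0.71, SE 0.31, adjusted p = 0.0488) rose by edgeR, against 23.7% of parents; neither was called with RLE factors, mapped totals alone or listed counts, and neither without day 3 replicate 2, without day 7 replicate 1 or without day 7 replicate 3. The Lys-TTT-1 call was also lost without day 3 replicate 1 (adjusted p = 0.0615). With listed counts the parent called between these days was Lys-CTT-3, in the lower direction (log2 -0.75, edgeR adjusted p = 0.0299).

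By anticodon, neither Lys-CTT nor Lys-TTT passed in any comparison over 19 isoacceptors, of which edgeR called 31.6% at day 3, 15.8% at day 7 and 31.6% from day 3 to day 7. At an unadjusted p below 0.05, Lys-TTT alone passed, at day 3 and from day 3 to day 7. At day 3 the log2 fold change was 0.10 (SE 0.28, edgeR adjusted p = 0.789) for Lys-CTT and -0.68 (SE 0.32, edgeR adjusted p = 0.0644) for Lys-TTT. Without day 3 replicate 3, Lys-TTT was called (log2 -0.86, adjusted p = 0.0346). With listed counts Lys-CTT was called, higher at day 3 (log2 0.51, edgeR adjusted p = 0.0425) and lower from day 3 to day 7 (log2 -0.68, edgeR adjusted p = 0.00878). The opposite lengths of the CTT ladder are summed in the first of these.

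For ratios between parents the test was a two-sided exact permutation of the libraries, for which 3 against 3 libraries cannot go below p = 0.1. Within Lys-CTT-3, the fragments of 32 nt or more were 505%, 810% and 882% of the shorter ones in control, 402%, 438% and 640% at day 3 and 1356%, 546% and 745% at day 7. These groups overlapped, with a log2 difference of -0.56 at day 3 (exact permutation p = 0.2). With the 32 nt fragment counted among the shorter ones the percentages were 96.7%, 193% and 180% in control and 32.9%, 21.2% and 54.9% at day 3, without overlap (log2 -2.15, exact permutation p = 0.1). The ratio of Lys-CTT-2 to Lys-CTT-3 was 9.998%, 13.96% and 16.1% in control, 6.78%, 3.08% and 6.32% at day 3 and 12.7%, 9.0% and 9.40% at day 7. Day 3 was below both other groups without overlap, 2.57-fold under control (exact permutation p = 0.1; 0.257 adjusted over 18 ratio tests). At a single length the day 3 difference was smaller: the ratio was 0.741% ± 0.267 and 0.680% ± 0.0892 at 32 nt (exact permutation p = 1.0) and 21.9% ± 2.47 and 19.3% ± 5.66 at 34 nt (exact permutation p = 0.5; SD, n = 3, control then day 3).

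The ratio of Lys-TTT-1 to Lys-CTT-3 was 2.01%, 1.41% and 1.86% in control, 1.22%, 0.716% and 0.920% at day 3 and 1.49%, 1.63% and 1.68% at day 7. It was 1.87-fold lower at day 3 without overlap (exact permutation p = 0.1). At 32 nt it was 0.557%, 0.997% and 1.06% in control and 0.362%, 0.376% and 0.349% at day 3, a 2.32-fold lower value without overlap (exact permutation p = 0.1). At 34 nt the groups overlapped, at 2.65% ± 0.967 and 2.98% ± 1.03 (SD, n = 3, exact permutation p = 0.7). The summed ratio of Lys-TTT to Lys-CTT was 1.54% ± 0.298 in control, 0.893% ± 0.225 at day 3 and 1.44% ± 0.115 by day 7 (SD and n = 3); at day 3 the exact permutation p was 0.1.

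Against the long 5′ fragments of glutamate and valine tRNAs, the lysine sum showed no common direction. The lysine to glutamate ratio was 127% ± 25.8 in control and 132% ± 40.7 in the day 3 libraries (SD, n = 3, exact permutation p = 0.8). Split by length, it was 375% ± 15.9 and 1014% ± 331 at 32 nt without overlap (exact permutation p = 0.1) and 113% ± 41.8 and 52.9% ± 25.7 at 34 nt with overlap (exact permutation p = 0.2; SD, n = 3). At day 7 the 32 nt ratio was 1017% ± 396, also above control without overlap (SD, n = 3; log2 1.37, exact permutation p = 0.1). The lysine to valine ratio was 174% ± 4.12 in control and 107% ± 28.2 at day 3, without overlap (SD, n = 3, exact permutation p = 0.1). It was 626% ± 77.0 and 406% ± 106 at 34 nt without overlap (SD, n = 3, exact permutation p = 0.1), and 54.6% ± 7.75 and 63.3% ± 12.3 at 32 nt with overlap (SD, n = 3, exact permutation p = 0.5).

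Over the 9 libraries the 34 nt members resembled each other. On log2(CPM + 1), Pearson's r was 0.96 between the 34 nt forms of Lys-CTT-3 and Lys-CTT-2 and 0.91 between those of Lys-TTT-1 and Lys-CTT-2, as descriptions over libraries that share their scaling. Between the 34 nt forms of Lys-TTT-1 and Lys-CTT-3 it was 0.85, less than that of either with the glycine fragment named next. Between the 32 and 34 nt forms of Lys-CTT-3 Pearson's r was -0.39. Among other amino acids, the fragment most like the 34 nt form of Lys-CTT-3 was tiRNA-1:33-Gly-CCC-1 (r = 0.91), a glycine 5′ fragment, followed by tRF-53:74-Gly-CCC-2-M4 (0.89), tiRNA-32:69-chrM.His-GTG-M1-37:C>A (0.88) and tiRNA-1:34-Val-CAC-2 (0.88). The same glycine fragment was most like the 34 nt form of Lys-TTT-1 (0.94), followed by tRF-60:76-Phe-GAA-1-M3 (0.91), tiRNA-32:70-chrM.His-GTG-M1-38:C>A (0.89) and tRF-+1:T30-Thr-CGT-1 (0.80). That glycine fragment was at 248 ± 40.01 CPM in control, 136 ± 54.9 CPM at day 3 and 216 ± 85.3 CPM at day 7 (SD, n = 3).

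The list held 12 lysine fragments of any class, the other two being 5′ fragments of 15 nt. The Lys-TTT-1 one was at 24.5, 48.0 and 44.5 CPM in control, 54.7, 61.3 and 125 CPM at day 3 and 52.3, 29.6 and 33.1 CPM at day 7. Day 3 lay above both other groups, and the difference from control did not pass (log2 1.00, SE 0.36, edgeR adjusted p = 0.0505). The Lys-CTT-2-M2 one was at 29.2 ± 8.41, 53.4 ± 26.7 and 22.6 ± 11.6 CPM (SD, n = 3; log2 0.82 at day 3, edgeR adjusted p = 0.0990). In a tissue measured in bulk, fewer cells of a type and less RNA per cell cannot be told apart for any of these levels.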

How the data were processed

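Small RNA of 9 complexes, 3 per group, was sequenced after steps that, per the labels' protocols, removed bound amino acids and cyclic phosphates, phosphorylated 5′ ends and demethylated m1A and m3C, followed by size selection on a gel. The gel window can favour some lengths. Alignment settings are not given in the sources used here; the submitters' processing notes name FastQC, Bowtie, edgeR and the mouse build mm10. The authors deposited read counts and CPM (scaled to mapped reads) for each fragment and library, per the file headers; the mapped total is count divided by CPM. Every listed fragment reached 20.1 CPM in at least 1 library, and 7 empty lines were not used.

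Counts of all 200 fragments from all 9 libraries were fitted with edgeR 4.0.16 (R 4.3.3; mapped totals, TMM factors of 0.749 to 1.14, quasi-likelihood F test, Benjamini-Hochberg adjustment over all fragments, threshold 0.05). The filterByExpr filter removed 0 fragments and the biological coefficient of variation was 34.9%. Counts summed per parent and per anticodon were fitted likewise, with adjustment over the 38 parents or 19 anticodons. Log2 ratios of 34 to 32 nt counts (0.5 added to each) were fitted with limma 3.58.1. CPM values are means ± SD of the deposited CPM, so folds differ from CPM ratios by the TMM factors. DESeq2 1.42.0 and limma-voom were alternatives. The scripts were tested on simulated data. Libraries sharing a replicate number were not paired: after group means were removed, only 2 of their 9 pairs correlated above 0.1 (range -0.331 to 0.331). Every lysine fragment is named, and of other amino acids the 4 fragments with the highest Pearson r to the most abundant member of each anticodon. The members and lists were chosen with earlier results of these data known.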

Additional observations from a re-analysis of the deposited data

Results flagged for a closer look

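Day 3 and day 7 differed in 6 lysine results, each by a test of day 7 against day 3 that carries the difference of their effects against the shared controls. The 30 nt fragment tRF-1:30-Lys-CTT-3 differed by -0.97 in log2 fold change. The summed long 5′ fragments differed by 0.86 for Lys-CTT-2 and by 0.71 for Lys-TTT-1. The log2 ratio of 34 to 32 nt counts differed by 1.44 for Lys-CTT-2, by 1.75 for Lys-CTT-3 and by 1.01 for Lys-TTT-1. In this comparison 34.5% of all fragments, 44.7% of parents and 63.6% of the 34 to 32 nt ratios were called in either direction. For Lys-CTT-2 and Lys-TTT-1 the sum and the ratio are built from the same 32 and 34 nt counts. Groups of 3 libraries are too small for a test of single outlying libraries.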

How the results depend on the processing

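Members called at day 3 against control numbered 4 in the fit as reported and 2 with mapped totals alone; leaving out 1 library gave 0 to 6. From day 3 to day 7 there was 1, against 3 with mapped totals alone, 5 with listed counts as library size, 4 among fragments of at least 100 CPM on average (3 higher, 1 lower), 2 by DESeq2 and 0 to 2 without 1 library. Lysine parents called at day 3 numbered 1, against 0 with mapped totals or listed counts and 0 to 2 without 1 library. From day 3 to day 7 they numbered 2, against 0 with RLE factors or mapped totals, 1 with listed counts (Lys-CTT-3, lower), 1 with the replicate block (Lys-CTT-2, higher) and 0 to 2 without 1 library. Lysine anticodons called were 0, against 1 with listed counts at day 3 and from day 3 to day 7 (Lys-CTT, higher and then lower), and 0 to 1 without 1 library in both (Lys-TTT, lower and then higher).

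Of 438 values of single fragments under alternatives, 30 changed sign, 0 of them for a fragment called in the reported fit; the cause was not tested. For the 32 nt Lys-TTT-1 fragment at day 3 the log2 fold change became 0.059 with RLE factors, 0.0094 with mapped totals, 0.38 with listed counts, 0.057 by DESeq2 and 0.0062 with the replicate block, and ran from -0.17 to 0.090 without 1 library. Without 1 library it ran from -0.36 to 0.027 at day 7 against control and from -0.34 to 0.042 from day 3 to day 7. The 34 nt Lys-TTT-1 fragment at day 7 against control became -0.11 with RLE factors, -0.22 with mapped totals, -0.23 with listed counts, -0.11 by DESeq2 and -0.037 with both groups fitted alone, and ran from -0.21 to 0.22 without 1 library. The 30 nt Lys-CTT-3 fragment at day 7 against control became -0.093 with mapped totals and -0.12 with listed counts. The 31 nt one became 0.00013 among fragments of at least 100 CPM (-0.36 to 0.23 without 1 library), and the 34 nt one 0.10 (-0.21 to 0.20 without 1 library). The 28 nt fragment from day 3 to day 7 became -0.036 with mapped totals and -0.43 with listed counts, and as its parent sum -0.037 and -0.43.

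At day 7 against control, summed Lys-CTT-3 became -0.0060, -0.12 and -0.14 with RLE factors, mapped totals and listed counts; Lys-TTT-1 became -0.12, -0.24 and -0.26, and Lys-CTT -0.042, -0.15 and -0.17. With the replicate block Lys-TTT-1 became -0.0022 as a parent and -0.0018 as an anticodon. Without 1 library these ran from -0.064 to 0.32, from -0.23 to 0.20 and from -0.089 to 0.29, and Lys-CTT-2 from -0.44 to 0.0074. At day 3 they ran from -0.015 to 0.30 for Lys-CTT-3 and from -0.13 to 0.21 for Lys-CTT. Between day 3 and day 7 Lys-CTT became -0.21, -0.28 and -0.68 with those scalings (-0.18 to 0.24 without 1 library), and Lys-CTT-3 ran from -0.26 to 0.17.

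The Lys-CTT-2 to Lys-CTT-3 log2 difference at day 7 became 0.27 at 32 nt. At 34 nt the Lys-TTT-1 to Lys-CTT-3 ratio gave 0.17 at day 3, 0.084 at day 7 and -0.088 between them. Lysine to glutamate gave -1.12 at day 3 at 34 nt and -0.0067 from day 3 to day 7 at 32 nt, and lysine to valine 0.20 at day 3 and 0.40 at day 7 at 32 nt. Longer to shorter Lys-CTT-3 at day 7, 0.20 as reported, became -0.41 with longer meaning 33 nt or more (-0.16 to 0.50 without 1 library), and Lys-TTT to Lys-CTT ran from -0.24 to 0.040.

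The 34 to 32 nt ratio of Lys-TTT-1 at day 3 was called with the replicate block (-0.91, adjusted p = 0.0408), and without 1 library ran from -1.18 to -0.51, and from -0.076 to 0.36 at day 7. From day 3 to day 7 it ran from 0.61 to 1.29, and for Lys-CTT-2 from 0.91 to 1.81. The length-ratio fits and the single-length ratios were chosen after seeing the data. With the replicate block 5 members were called at day 3 in place of 4. The 29 nt and 32 nt members other than Lys-CTT-3 at 32 nt held 10 to 90 counts per library.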
